A study of Mus musculus with 16 samples.

Results

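Ifit1, Ifit2, Ifit3 and Ifit3b are 4 interferon-stimulated genes that lie beside Ch25h, the gene of cholesterol 25-hydroxylase, on mouse chromosome 19. They were taken by gene symbol from a table of 54532 genes counted by bulk RNA sequencing, and all 4 were among the 17736 genes that passed the filter on low counts. The series, whose title links STING, interferon and CH25H to tau pathology, holds 16 libraries from mice that were all female and 9 months old. Ch25h+/+ mice carry the intact gene and Ch25h-/- mice lack it, and each genotype was either without (Tau-) or with (Tau+) what the labels call Tau, which gives 4 groups of 4 libraries. The labels name no tau transgene, promoter or line, no breeding scheme and no other allele, and they give no treatment. The labels of the libraries call the tissue frontal cortex, whereas the design text of the series says hippocampus. The summed level of 5 cortical layer markers was 471 to 608 counts per 1000000 counts (CPM) in the 16 libraries, and that of 4 hippocampal markers was 46.9 to 175 CPM. Nothing in the labels says more of the replicates than that each has its own identifier, so the p-values measure the spread between these samples.

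IFIT proteins (interferon-induced proteins with tetratricopeptide repeats) are cytosolic antiviral proteins made when interferon reaches a cell. Type I interferon binds its receptor IFNAR, the kinases JAK1 and TYK2 then activate transcription factors, and these bind interferon-stimulated response elements in the promoters of the target genes. IFIT1 binds the capped ends of foreign RNA and blocks their translation, IFIT2 binds RNA and acts as a partner in IFIT complexes, and IFIT3 is a further partner. Ifit3b is a copy of Ifit3 in the mouse. In the brain, microglia and other glia, endothelial cells and neurons can all express these genes.

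In the GENCODE annotation of GRCm38 the members lay on the plus strand in the order Ifit2, Ifit3, Ifit3b, Ifit1, all on 1 side of Ch25h and of its neighbour Lipa, the gene of lysosomal acid lipase. Ch25h itself spans chr19:34473778-34475164 on the minus strand. Ifit2 (ENSMUSG00000045932.12) spans chr19:34550694-34576419 and starts 75.5 kb from the start of Ch25h. Ifit3 (ENSMUSG00000074896.3) spans chr19:34583531-34588731 and starts 108 kb away. Ifit3b (ENSMUSG00000062488.9) spans chr19:34607970-34613401 and starts 133 kb away. Ifit1 (ENSMUSG00000034459.8) spans chr19:34640871-34650009 and starts 166 kb away. Between them lie 2 further family genes on the minus strand, Ifit1bl1 after Ifit3 and Ifit1bl2 before Ifit1.

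The promoters of the members are shown because 3 of them hold the same response-element letters and because those of Ifit3 and Ifit3b are nearly the same sequence. Each line gives 180 bases of the plus strand from RefSeq on GRCm38.p6, from 200 to 21 bases before the annotated start. The stretches are chr19:34640689-34640868 for Ifit1, chr19:34550494-34550673 for Ifit2, chr19:34583329-34583508 for Ifit3 and chr19:34607757-34607936 for Ifit3b. Capitals mark the letters GAAA, any 2 bases, GAAA, the core of an interferon-stimulated response element, on either strand. On the strand shown they read TTTC, any 2 bases, TTTC.
Ifit1: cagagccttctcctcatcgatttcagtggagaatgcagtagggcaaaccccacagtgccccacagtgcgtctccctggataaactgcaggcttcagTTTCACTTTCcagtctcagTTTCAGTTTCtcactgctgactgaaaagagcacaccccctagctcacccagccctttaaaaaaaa
Ifit2: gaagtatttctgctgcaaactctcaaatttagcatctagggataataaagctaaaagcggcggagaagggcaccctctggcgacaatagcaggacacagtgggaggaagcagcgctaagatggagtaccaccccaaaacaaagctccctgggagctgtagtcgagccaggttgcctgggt
Ifit3: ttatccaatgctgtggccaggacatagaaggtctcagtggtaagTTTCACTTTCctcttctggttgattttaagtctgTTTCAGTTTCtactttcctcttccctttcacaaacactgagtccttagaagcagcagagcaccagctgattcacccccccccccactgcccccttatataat
Ifit3b: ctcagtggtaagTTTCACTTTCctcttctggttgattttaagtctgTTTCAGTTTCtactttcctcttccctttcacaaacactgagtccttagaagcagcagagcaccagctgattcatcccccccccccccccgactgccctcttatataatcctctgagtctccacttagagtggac
The motif was searched on both strands in the 250 bases before each annotated start. Ifit1 held 2 matches, TTTCACTTTC at 104 to 95 bases and TTTCAGTTTC at 85 to 76 bases before its start. Ifit3 held the same 2 sequences at 156 to 147 and 122 to 113 bases before its start, and Ifit3b held them at 188 to 179 and 154 to 145 bases. Ifit2 held no match at either of its 2 annotated starts, which says only that these letters are not in those windows. Among all 32851 promoter windows of the same length, 978 (2.98%) held the motif. The promoters of Ifit3 and Ifit3b were identical at 99.1% of 218 aligned bases. The first annotated start of Ifit1bl2 lies 146 bases from that of Ifit1 on the other strand, so the matches of Ifit1 are also matches of Ifit1bl2. Ifit1bl1 held 1 match, TTTCATTTTC, before each of its 2 annotated starts. A match is a description of the letters and not of a bound site.

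The transcripts of Ifit3 and Ifit3b limit what can be told from their counts. They were identical at 98.0% of 1697 aligned bases, whereas the other pairs of members were identical at 60.1% to 63.8%. Of all 50-base stretches of the Ifit3 transcript, 51.2% occurred without a mismatch in Ifit3b, and 18.6% of its 150-base stretches did. A read inside such a stretch cannot be assigned to 1 of the 2 genes, and how the counting treated it is not given in the sources used here. The values of Ifit3 and Ifit3b are therefore uncertain as separate genes. Ifit1 shared 7.14% of its 50-base stretches with another gene, namely Ifit1bl2, Ifit1bl1 or both, and Ifit2 shared none. The use of strand in counting is not given either, so reads where Ifit1bl2 and Ifit1 lie close together on opposite strands may also be divided uncertainly.

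Depth was 15530352 to 25602500 counts per library, and the members had 21 to 537 counts per library. Counting error alone was 4.32% to 21.8% of a value, and it covers counting only. The Ch25h label held in every library: no Ch25h-/- library had a count of Ch25h, Tau- mice with the intact gene had 5 to 10 counts and Tau+ mice with it had 11 to 30. In the 16 libraries 3 counts, the limit that a count of 0 allows, equal 0.117 to 0.195 CPM. In 7 of the 16 libraries the ribosomal RNA gene CT010467.1 exceeded 1000 CPM, and all 7 were Ch25h-/-. The remaining Ch25h-/- library, replicate 1 of Ch25h-/- Tau+, was low in this RNA like the 8 Ch25h+/+ libraries. In Tau- mice Ch25h genotype and this difference between libraries cannot be told apart, and in Tau+ mice only that 1 library separates them.

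The 4 genes differed in level and in their order by group. Per kilobase of annotated exon, the mean level in Ch25h+/+ Tau- was 3.17 CPM per kb for Ifit3, 2.74 for Ifit2, 1.71 for Ifit3b and 0.682 for Ifit1. In Ch25h+/+ Tau+ it was 11.8 for Ifit3, 4.68 for Ifit3b, 3.60 for Ifit2 and 2.88 for Ifit1. Within each library, Ifit3 stood above Ifit3b and Ifit3b above Ifit1 in 16 of 16. The place of Ifit2 changed: Ifit3b lay above Ifit2 per kilobase in 4 of 4 libraries of Ch25h+/+ Tau+, in 1 of 4 of Ch25h-/- Tau+ and in 0 of 8 Tau- libraries. Ifit2 and Ifit3 were neighbours whose order was not fixed in 3 groups, where Ifit2 was higher in 1 of 4 libraries.

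Among Ch25h+/+ mice, Ifit1, Ifit3 and Ifit3b were 2.72 to 4.18 times higher in Tau+ than in Tau-, and Ifit2 differed by a far smaller step. The 3 genes passed the test across all genes, which 1.47% of the genes tested passed as higher. All 4 had groups that did not overlap with Tau+ higher, which 3.89% of the genes tested did. The median log2 fold change of the 4 members was 1.67, against -0.01 over all genes.

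Ifit1, the RNA-cap binder, was measured at 1.57, 2.02, 2.24 and 1.41 CPM in Ch25h+/+ Tau- and at 13.1, 5.85, 5.25 and 6.49 CPM in Ch25h+/+ Tau+. Every Tau+ library lay above every Tau- library, and replicate 1 of Tau+ stood far above the other 3. The log2 fold change was 2.06 (SE 0.36, 95% interval 1.30 to 2.83, adjusted p = 0.00362, edgeR quasi-likelihood test with Benjamini-Hochberg adjustment), from 1.81 ± 0.388 to 7.66 ± 3.63 CPM (SD, n = 4).

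Ifit3, the IFIT1 partner, was measured at 4.02, 5.85, 7.85 and 4.38 CPM in Ch25h+/+ Tau- and at 33.1, 15.5, 15.7 and 18.3 CPM in Ch25h+/+ Tau+. The lowest Tau+ library was still well above the highest Tau- library, and the same replicate 1 was again the highest. The log2 fold change was 1.89 (SE 0.29, 95% interval 1.27 to 2.51, adjusted p = 0.00137, edgeR), from 5.53 ± 1.74 to 20.7 ± 8.37 CPM (SD, n = 4).

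Ifit3b, the copy of Ifit3, was measured at 3.19, 3.45, 4.32 and 2.72 CPM in Ch25h+/+ Tau- and at 13.9, 7.36, 8.37 and 7.89 CPM in Ch25h+/+ Tau+. The groups were apart, with replicate 1 of Tau+ highest. The log2 fold change was 1.44 (SE 0.25, 95% interval 0.93 to 1.96, adjusted p = 0.00272, edgeR), from 3.42 ± 0.670 to 9.37 ± 3.02 CPM (SD, n = 4).

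Ifit2 was measured at 10.5, 11.3, 11.6 and 9.57 CPM in Ch25h+/+ Tau- and at 15.6, 12.6, 14.0 and 14.3 CPM in Ch25h+/+ Tau+. The groups did not overlap, but the step between them was small. The log2 difference was 0.39 (95% interval 0.14 to 0.65) and did not pass the test over all genes (adjusted p = 0.165, unadjusted p = 0.00472, edgeR). The log2 ratio of Ifit1 to Ifit2 within a library was 1.59 higher in Tau+ than in Tau-, with groups that did not overlap. This was 1 of 24 such tests of member ratios, chosen after the values were seen, and neither it nor any other passed after adjustment (exact permutation test, p = 0.0286, the smallest that 4 against 4 allows, adjusted p = 0.0762).

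Leaving out replicate 1 of Ch25h+/+ Tau+ lowered the log2 fold changes to 1.70 for Ifit1, 1.58 for Ifit3 and 1.21 for Ifit3b, and all 3 stayed past the threshold (adjusted p = 0.0111, 0.00294 and 0.00773, edgeR). That library was the highest of all 16 in each of the 4 members.

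**Figure D1:**
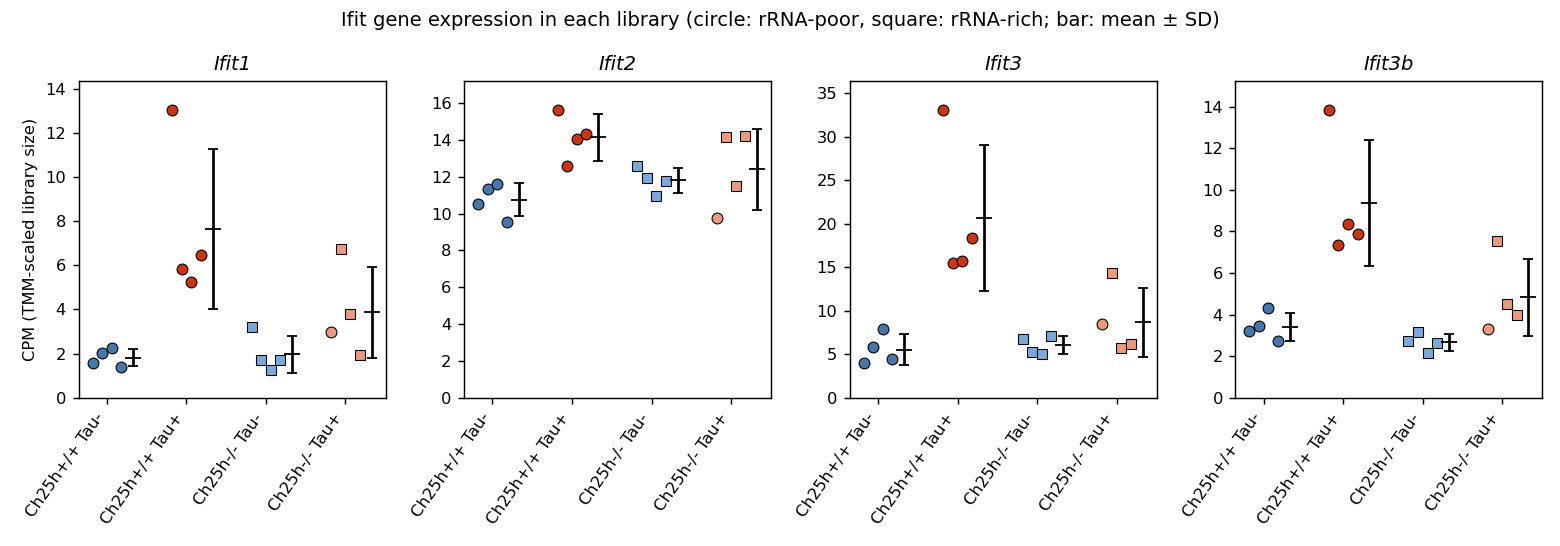
Level of the 4 Ifit genes in each of 16 libraries, in CPM on a linear axis from 0 that differs by panel, by group, with the group mean and SD (n = 4). The Ch25h+/+ Tau+ libraries lie above all Ch25h+/+ Tau- libraries in every panel, and 1 of them is the highest of the 16 in every panel.

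Among Ch25h-/- mice no member passed the test between Tau+ and Tau- by edgeR, DESeq2 or limma-voom, while 0.0395% of all genes passed by edgeR. At an unadjusted p under 0.05 there were 2 members, against 3.68% of all genes. The log2 differences were 0.96 for Ifit1, 0.06 for Ifit2, 0.52 for Ifit3 and 0.84 for Ifit3b, with a median of 0.68 against 0.01 over all genes.

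Ifit3b was measured at 2.71, 3.18, 2.17 and 2.62 CPM in Ch25h-/- Tau- and at 3.33, 7.54, 4.49 and 3.997 CPM in Ch25h-/- Tau+. These were the only member groups of this genotype that did not overlap, as did 1.14% of all genes with Tau+ higher. The interval of the log2 difference was 0.30 to 1.39 (unadjusted p = 0.00441, adjusted p = 1.0, edgeR).

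Ifit1 was measured at 3.19, 1.71, 1.27 and 1.73 CPM in Ch25h-/- Tau- and at 2.97, 6.76, 3.81 and 1.94 CPM in Ch25h-/- Tau+. The groups overlapped, and replicate 2 of Tau+ was the highest. The interval of the log2 difference was 0.17 to 1.75 (unadjusted p = 0.0193, adjusted p = 1.0, edgeR).

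Ifit3 was measured at 6.75, 5.29, 5.06 and 7.03 CPM in Ch25h-/- Tau- and at 8.49, 14.4, 5.74 and 6.12 CPM in Ch25h-/- Tau+. The groups overlapped, with 2 Tau+ libraries within the range of Tau-. The interval of the log2 difference was -0.11 to 1.15 (adjusted p = 1.0, edgeR).

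Ifit2 was measured at 12.6, 11.9, 10.97 and 11.8 CPM in Ch25h-/- Tau- and at 9.74, 14.2, 11.5 and 14.2 CPM in Ch25h-/- Tau+. The Tau+ values lay below, within and above the Tau- range. The interval of the log2 difference was -0.19 to 0.32 (adjusted p = 1.0, edgeR).

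Replicate 2 was the highest of the Ch25h-/- Tau+ libraries in Ifit1, Ifit3 and Ifit3b. Without it the log2 differences were 0.56, 0.17 and 0.55 for these 3 genes. Among the ribosomal RNA-rich libraries alone, that is without replicate 1 of Tau+, the log2 differences were 1.07 for Ifit1, 0.16 for Ifit2, 0.52 for Ifit3 and 0.99 for Ifit3b, and none passed (adjusted p = 0.793 to 1.0, edgeR).

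In Tau- mice no member passed the test for loss of Ch25h. The log2 difference of Ch25h-/- against Ch25h+/+ was 0.12 for Ifit1, 0.13 for Ifit2, 0.12 for Ifit3 and -0.36 for Ifit3b. The 95% intervals were -0.70 to 0.93, -0.12 to 0.39, -0.51 to 0.76 and -0.91 to 0.19. None passed by edgeR, DESeq2 or limma-voom, against 1.03% of all genes by edgeR, and none had an unadjusted p under 0.05, against 20.9% of all genes. The values of the genotypes overlapped in every member among Tau- mice, whereas 16.2% of all genes did not overlap in 1 direction or the other. With the ribosomal RNA class as a covariate Ifit3b was at -1.04 (unadjusted p = 0.0408, adjusted p = 1.0, edgeR). In that fit only replicate 1 of Ch25h-/- Tau+ separates the class from genotype. The value for Tau- therefore rests on 1 Tau+ library and is no test of genotype apart from the class.

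Among Tau+ mice, Ifit3 and Ifit3b were lower without Ch25h by edgeR, DESeq2 and limma-voom. Ifit1 did not pass by edgeR or limma-voom and passed by DESeq2 (adjusted p = 0.0457), and Ifit2 passed by none of them. The 2 that passed by edgeR stand against 2.4% of all genes that were lower. The median log2 difference of the 4 members was -0.97, against 0.00 over all genes. This comparison and the tau comparison in Ch25h+/+ share the Ch25h+/+ Tau+ libraries.

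Ifit3 fell from 20.7 ± 8.37 CPM in Ch25h+/+ Tau+ to 8.68 ± 3.98 CPM in Ch25h-/- Tau+ (SD, n = 4), 2.38 times lower. The groups did not overlap, as for 5.74% of all genes in that direction, and the gap between the highest Ch25h-/- value of 14.4 and the lowest Ch25h+/+ value of 15.5 CPM was narrow. The log2 fold change was -1.25 (SE 0.29, 95% interval -1.85 to -0.65, adjusted p = 0.0282, edgeR).

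Ifit3b fell from 9.37 ± 3.02 to 4.84 ± 1.86 CPM (SD, n = 4), 1.94 times lower, with 1 Ch25h-/- library inside the Ch25h+/+ range. The log2 fold change was -0.96 (SE 0.24, 95% interval -1.47 to -0.45, adjusted p = 0.0391, edgeR). Ifit1 differed by -0.99 (95% interval -1.71 to -0.26, adjusted p = 0.101), and its groups overlapped through replicate 2 of Ch25h-/- Tau+. Without replicate 1 of Ch25h+/+ Tau+ it was at -0.62 (adjusted p = 0.318, edgeR). Ifit2 differed by -0.19 (95% interval -0.45 to 0.06, adjusted p = 0.349). It was at -0.35 with GC-corrected offsets (unadjusted p = 0.00851, adjusted p = 0.160) and at -0.54 with the ribosomal RNA class as a covariate (unadjusted p = 0.00656, adjusted p = 0.767), and passed in neither (edgeR).

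Neither call held in every setting. Without replicate 1 of Ch25h+/+ Tau+ the log2 differences were -0.94 for Ifit3 and -0.72 for Ifit3b and did not pass (adjusted p = 0.0771 and 0.110, edgeR). Both calls were also lost in other fits, with log2 differences near those above or larger. They were -1.31 and -1.04 without replicate 4 of Ch25h+/+ Tau+, -1.11 and -0.94 without replicate 3 and -1.13 and -0.90 without replicate 4 of Ch25h-/- Tau+. In a fit of only the 8 libraries compared they were -1.25 and -0.96 (adjusted p = 0.0965 and 0.126), and with the ribosomal RNA class as a covariate -1.28 and -1.49 (adjusted p = 0.976 and 0.437). The 1 ribosomal RNA-poor library of Ch25h-/- Tau+ measured 2.97 CPM for Ifit1, 9.74 for Ifit2, 8.49 for Ifit3 and 3.33 for Ifit3b, below all 4 Ch25h+/+ Tau+ libraries in each gene. A single library gives no test of genotype within that class.

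The test of whether the tau difference itself depended on Ch25h passed for no member by edgeR, DESeq2 or limma-voom, against 0.0338% of all genes by edgeR. The interaction, the tau difference in Ch25h-/- minus that in Ch25h+/+, was -1.10 for Ifit1, -0.33 for Ifit2, -1.37 for Ifit3 and -0.60 for Ifit3b on the log2 scale. For Ifit3b it was -0.37 without replicate 1 of Ch25h+/+ Tau+ and -0.91 without replicate 2 of Ch25h-/- Tau+, and it was -1.11 for Ifit3 and Ifit3b added as 1 gene. Unadjusted p was under 0.05 for 2 members, Ifit1 at 0.0475 and Ifit3 at 0.00396 (adjusted p = 1.0 and 0.487), against 4.13% of all genes. The median over the members was -0.85, against 0.02 over all genes. That 3 members passed in Ch25h+/+ and none in Ch25h-/- is therefore not a shown difference between the genotypes.

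**Figure D2:**
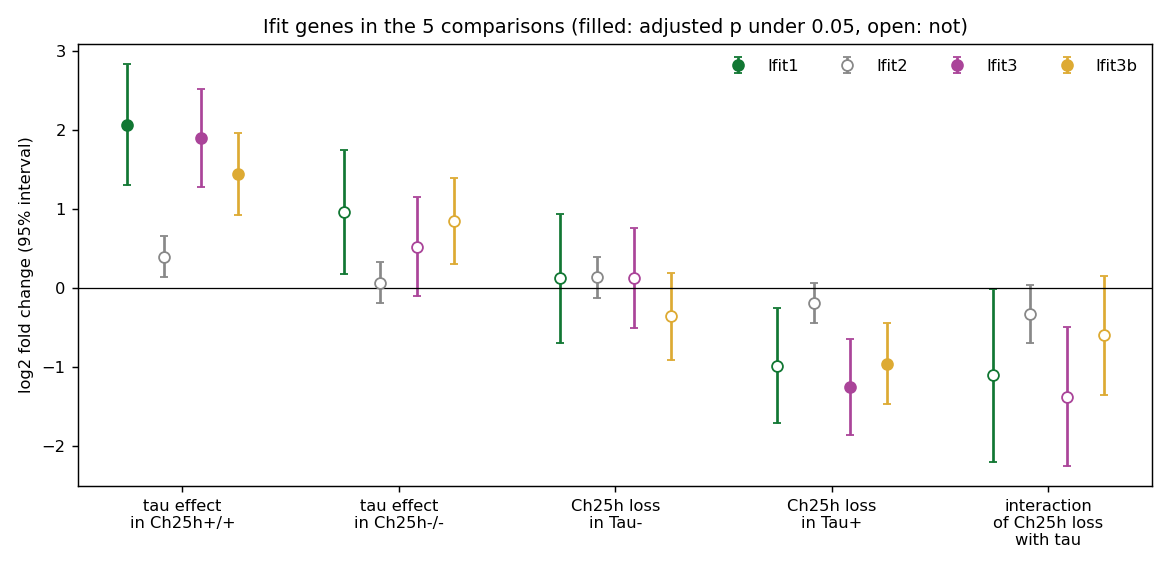
Log2 fold change of each Ifit gene with its 95% interval in the comparisons of the design, from the edgeR fit of all 16 libraries. The intervals of Ifit1, Ifit3 and Ifit3b lie above 0 for the tau difference in Ch25h+/+, and those of Ifit2 are the narrowest.

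The spread within a group was smaller for Ifit2 than for the other members. The coefficient of variation over 4 libraries was 21.4% to 53.6% for Ifit1, 16.5% to 45.9% for Ifit3, 15.5% to 38.5% for Ifit3b and 5.65% to 17.7% for Ifit2, depending on the group. Over the 16 libraries the log2 levels of Ifit1, Ifit3 and Ifit3b correlated with each other at Pearson's r of 0.925 to 0.939, and those with Ifit2 at 0.733 to 0.772. After subtraction of the group means the member pairs lay at 0.444 to 0.817. These coefficients are descriptions over libraries that share groups, depth and the denominator of CPM.

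The share of Ifit3b in the sum of Ifit3 and Ifit3b does not depend on library size. It was 44.2%, 37.1%, 35.5% and 38.3% in Ch25h+/+ Tau- and 29.5%, 32.2%, 34.7% and 30.1% in Ch25h+/+ Tau+. The Tau+ shares all lay below the Tau- shares. The difference was -7.13 percentage points, and it did not pass after adjustment over 4 comparisons (exact two-sided permutation test, n = 4 against 4, p = 0.0286, the smallest that this design allows, adjusted p = 0.114). In Ch25h-/- Tau- the share was 28.7%, 37.5%, 30.0% and 27.2%, and in Ch25h-/- Tau+ it was 28.1%, 34.4%, 43.9% and 39.5%. These groups overlapped, and the difference was 5.66 points (exact permutation p = 0.229, adjusted p = 0.257). Loss of Ch25h came with a difference of -7.93 points in Tau- (exact permutation p = 0.0857, adjusted p = 0.171) and of 4.86 points in Tau+ (exact permutation p = 0.257, adjusted p = 0.257).

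**Figure D3:**
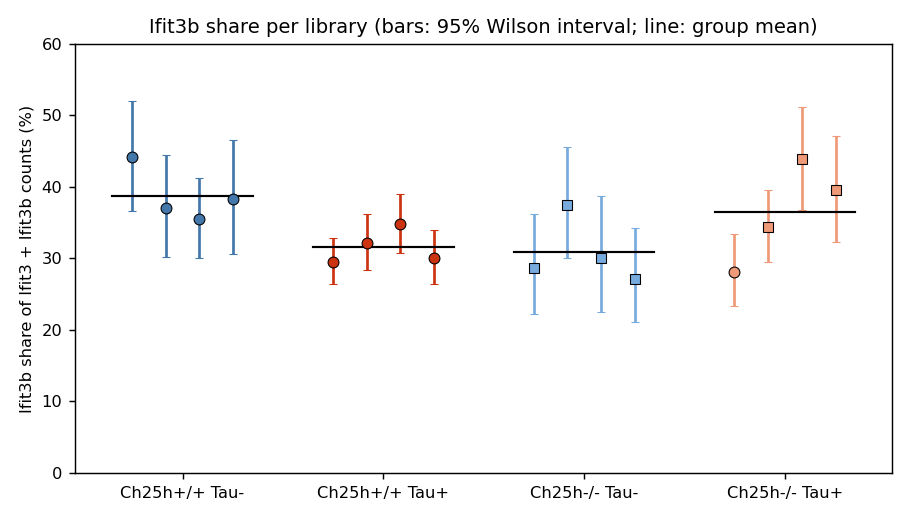
Share of Ifit3b in the counts of Ifit3 plus Ifit3b, in percent, for each library with its 95% Wilson interval, which covers counting error only, by group. The Ch25h+/+ Tau+ libraries, at 29.5% to 34.7%, lie below the Ch25h+/+ Tau- libraries, at 35.5% to 44.2%, and the Ch25h-/- groups overlap.

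No other gene of the locus passed the test for tau in Ch25h+/+ that 3 members passed. Of the 12 genes tested within 1 Mb of Ch25h besides the members, edgeR called none for tau in Ch25h+/+ (2 had an unadjusted p under 0.05, DESeq2 called 1 and limma-voom 2). None was called for tau in Ch25h-/- or for the interaction, with 1 unadjusted p under 0.05 in each, against 3.68% and 4.13% of all genes. For loss of Ch25h edgeR called Ch25h alone in each tau status, against 1.03% of all genes in Tau- and 2.4% as lower in Tau+. Unadjusted p was under 0.05 for 2 of the 12 in Tau-, Ch25h among them, against 20.9% of all genes, and for 4 in Tau+. DESeq2 called 0 in both and limma-voom called 2 in Tau- and 1 in Tau+. A gene to which DESeq2 gave no adjusted p counted as not called. Ch25h had no count in any Ch25h-/- library, so the 0 of DESeq2 does not show Ch25h unchanged. Gm26902, a noncoding RNA gene that overlaps Ch25h on the other strand, had log2 differences of -1.29 in Tau- (adjusted p = 0.0966, edgeR) and -0.93 in Tau+ (adjusted p = 0.158). Ch25h itself, at 0.370 ± 0.144 CPM without and 0.963 ± 0.319 CPM with tau in Ch25h+/+ (SD, n = 4), had a log2 difference of 1.39 for tau, close to that of Ifit3b, with groups that did not overlap and 5 to 30 counts per library (adjusted p = 0.193, edgeR). Lipa, between Ch25h and the Ifit genes, was at 16.6 ± 1.41 CPM without and 19.2 ± 3.02 CPM with tau in Ch25h+/+, and at 19.8 ± 1.07 CPM without and 18.2 ± 3.75 CPM with tau in Ch25h-/- (SD, n = 4). It passed in no comparison (edgeR). Ifit1bl1, between Ifit3 and Ifit3b, had group means of 3.47, 3.02, 4.25 and 4.08 CPM in the same order and a log2 difference of -0.21 for tau in Ch25h+/+ (adjusted p = 0.839, edgeR). Ifit1bl2, which starts beside Ifit1, had means of 0.910, 0.738, 1.25 and 0.935 CPM and a log2 difference of -0.31 (adjusted p = 0.899, edgeR). Both relatives of Ifit1 thus had negative values where Ifit1 was 4.18 times higher. Acta2, smooth muscle actin, on the far side of Ch25h, had a value of 0.75 in that comparison (adjusted p = 0.110, edgeR).

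**Figure D4:**
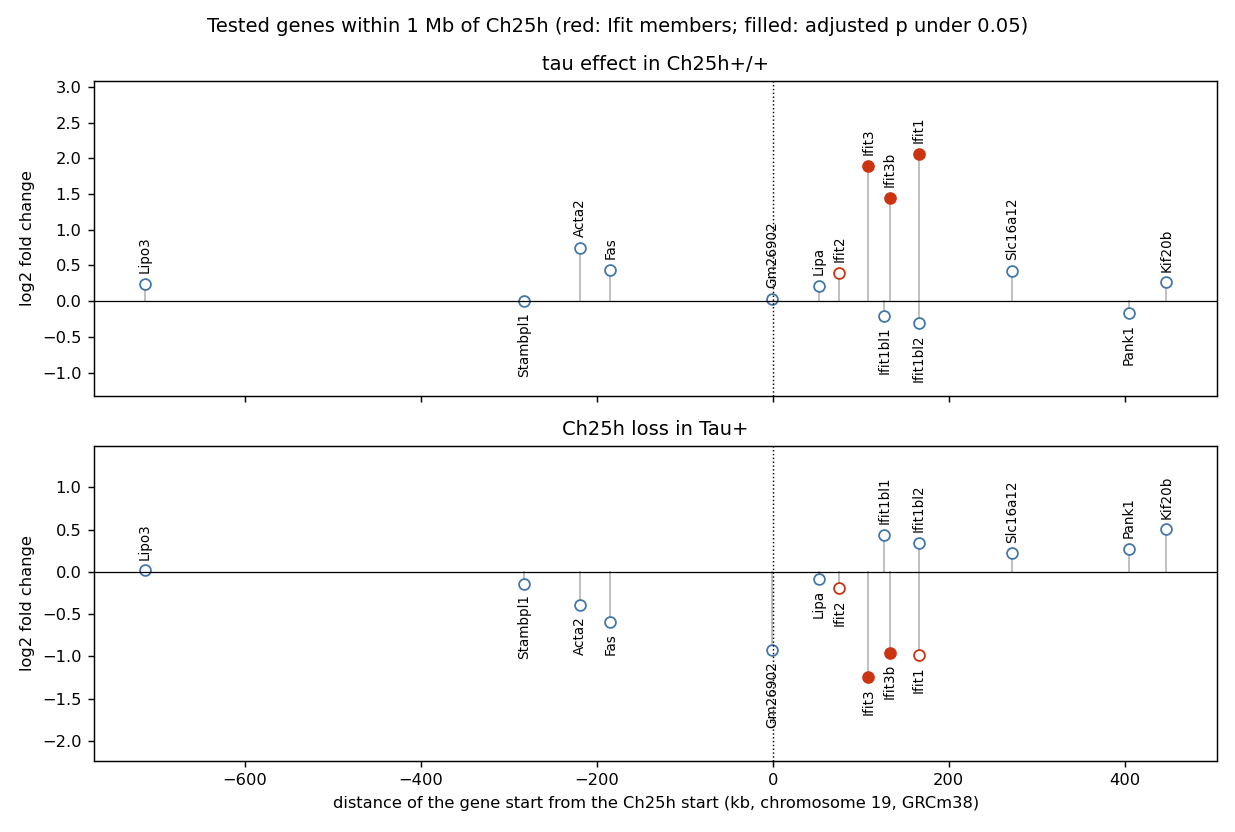
Log2 fold change between Tau+ and Tau- in Ch25h+/+ and between Ch25h genotypes in Tau+ for the genes tested within 1 Mb of Ch25h, by the distance of their start from that of Ch25h in kb. Ch25h itself, at 1.395 and -7.24, is not drawn. Ifit1, Ifit3 and Ifit3b, at 108 to 166 kb, stand above the neighbours drawn in the tau comparison, while Ifit1bl1 and Ifit1bl2 between them lie below 0.

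The interferon pathway upstream of the members was measured from its ligands to its brakes. None of 5 interferon genes passed the filter on low counts, and the highest value of any of them was 1 count, in Ifna1 in 1 library. Of 8 sensors and transducers, 1 rose with tau in Ch25h+/+, against 1.47% of all genes. This was Ddx58, the RNA sensor RIG-I, which rose by 0.86 on the log2 scale (adjusted p = 0.00691, edgeR). Irf7, the factor that amplifies interferon production, rose by 1.79 on the log2 scale (adjusted p = 0.00290, edgeR), with 2.17 ± 0.551 CPM in Tau- and 7.53 ± 2.65 CPM in Tau+ (SD, n = 4). Irf9, a further transcription factor of the response, had a value of 0.48 and did not pass (adjusted p = 0.260, edgeR). In Ch25h-/- none of the 8 sensors and transducers was called for tau by edgeR, DESeq2 or limma-voom. Of them 1 had an unadjusted p under 0.05, against 3.68% of all genes. Irf7 had a log2 difference of 0.79 in Ch25h-/- (95% interval 0.11 to 1.47, adjusted p = 1.0, edgeR).

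Of 26 other interferon effector genes 24 were tested, and 14 rose with tau in Ch25h+/+, against 1.47% of all genes. All 24 had positive values, with a median of 1.46 against -0.01 over all genes. Among them were Lgals3bp, a secreted galectin-binding protein (1.65, adjusted p = 5.23e-05), Parp14, an ADP-ribosyltransferase (1.44, adjusted p = 0.000136), Bst2, which tethers virus particles (1.66, adjusted p = 0.000688), and Ifi27l2a (2.59, adjusted p = 0.00179). Usp18, which removes ISG15 from proteins, restrains receptor signalling and stands on both lists, rose by 1.89 (adjusted p = 0.00185) and was the only 1 of 3 brakes called. The 3 Ifit genes that rose thus had log2 fold changes on both sides of the effectors' median, and that of Ifit2 lay below it.

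In Ch25h-/- no effector was called for tau by edgeR or limma-voom and 1 by DESeq2. At an unadjusted p under 0.05 there were 6, against 3.68% of all genes. Of the 24, 21 had positive values, with a median of 0.44. For loss of Ch25h in Tau+, 6 effectors fell by edgeR, against 2.4% of all genes, while DESeq2 called 9 effectors and limma-voom 10. The median was -0.92, against 0.00 over all genes. Irf7 (-1.15, adjusted p = 0.0424, edgeR) and Ifnar2, a chain of the type I interferon receptor (-0.42, adjusted p = 0.0278), fell as well. With the library class as a covariate the calls over all genes in this comparison went from 629 to 10. The effectors, Irf7 and Ifnar2 were not followed in that fit. Ifnar2 had a log2 difference of -0.29 for loss of Ch25h in Tau- too, from 13.7 ± 0.848 to 11.2 ± 0.897 CPM (SD, n = 4, adjusted p = 0.108, edgeR). Its groups did not overlap there, as for 16.2% of all genes in 1 direction or the other. Genotype and the ribosomal RNA class cannot be told apart in Tau-. For loss of Ch25h in Tau- no effector was called by edgeR, DESeq2 or limma-voom, with 1 unadjusted p under 0.05, against 20.9% of all genes. For the interaction edgeR and limma-voom called 0 of 24 and DESeq2 1, with 10 at an unadjusted p under 0.05, against 4.13% of all genes. The median was -0.99, against 0.02 over all genes.

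Irf7 was also the gene most like 3 of the 4 members by Pearson correlation. Among 14083 other genes of at least 1 log2 CPM, it had the highest Pearson correlation over the 16 libraries with Ifit1 (0.969), Ifit3 (0.966) and Ifit3b (0.954). For Ifit1 it was followed by Oasl2 (0.916), Ifitm3 (0.914), Rtp4 (0.899) and Srgn (0.889). For Ifit3 it was followed by Irgm1 (0.949), Oasl2 (0.943), Rtp4 (0.924) and Ube2l6 (0.924), and for Ifit3b by Ifitm3 (0.934), Oasl2 (0.934), Lgals3bp (0.932) and Rtp4 (0.925). Ifit2 was most like Srgn (0.885), Scg3 (0.885), Sparcl1 (0.842), Pfn4 (0.841) and Ifitm3 (0.830), of which Ifitm3 is an interferon-induced membrane protein. With the group means subtracted, Irf7 remained the most alike gene of Ifit1 (0.924), the most alike gene of Ifit3 was Isg15 (0.898) with Irf7 next (0.889), and that of Ifit3b was Eif3e (0.879), with Irf7 not among its first 5. By Spearman's rho over the 16 libraries Irf7 was first for Ifit1 alone (0.926), and it was not among the first 5 for Ifit3, led by Tap1 (0.947), Ifit3b, led by Gstt3 (0.903), or Ifit2, led by Scg3 (0.906). By Spearman's rho with the group means subtracted Irf7 was not among the first 5 of any member. These were led by Mrgpre for Ifit1 (0.894), 1700047I17Rik2 for Ifit2 (0.8765), Fez1 for Ifit3 (0.879) and Gm13509 for Ifit3b (0.862). All of these are descriptions over libraries that share depth and groups.

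Some microglial markers moved in the same comparisons as the members, and others did not. The summed level of 6 microglial markers was 254 to 272 CPM without and 324 to 419 CPM with tau in Ch25h+/+, and 254 to 284 CPM without and 253 to 308 CPM with tau in Ch25h-/-. Of the 6, 3 rose with tau in Ch25h+/+ (edgeR), with a median log2 fold change of 0.51 over the list, and 4 fell with loss of Ch25h in Tau+, with a median of -0.45. The members that rose changed by 1.44 to 2.06 in the first of these comparisons. Within the microglial list, Tmem119 was at 28.3 CPM without and 28.7 CPM with tau in Ch25h+/+. P2ry12 went the other way in Tau+, at 28.0 ± 1.06 CPM in Ch25h+/+ and 32.8 ± 6.51 CPM in Ch25h-/- (SD, n = 4). For loss of Ch25h in Tau-, where no member passed, edgeR called 0 microglial markers and DESeq2 and limma-voom called 2 each. The library with the highest Ifit values, replicate 1 of Ch25h+/+ Tau+, had the lowest microglial sum of its group at 324 CPM and the highest border macrophage sum of all 16 libraries at 14.8 CPM. Replicate 2 of Ch25h-/- Tau+, the highest of its group in Ifit1, Ifit3 and Ifit3b, had the highest microglial sum of its group at 308 CPM. For tau in Ch25h+/+ edgeR called none of 4 border macrophage, 4 astrocyte or 4 endothelial markers, of which 2, 1 and 0 had an unadjusted p under 0.05, and DESeq2 and limma-voom each called 1 astrocyte marker. The median log2 difference of the border macrophage markers was 0.63. Outside these lists, and chosen after their values were seen, 2 genes of glia and myeloid cells that were among the 5 most like Ifit1 by Spearman's rho (0.906 each) changed more than the members. Gfap, the intermediate filament of reactive astrocytes, was at 139 ± 17.04 CPM without and 762 ± 374 CPM with tau in Ch25h+/+ (log2 fold change 2.46, adjusted p = 6.13e-05, edgeR), and at 127 ± 24.8 and 197 ± 73.5 CPM in Ch25h-/- (SD, n = 4). Lyz2, the lysozyme of myeloid cells, was at 5.70 ± 1.95 CPM without and 44.8 ± 28.5 CPM with tau in Ch25h+/+ (log2 fold change 2.98, adjusted p = 0.000229, edgeR), and at 6.32 ± 3.01 and 8.42 ± 2.49 CPM in Ch25h-/- (SD, n = 4). The summed border macrophage markers were at 3.73 to 14.8 CPM in the 16 libraries, the astrocyte markers at 697 to 970 CPM and the endothelial markers at 145 to 211 CPM. Monocyte markers summed to 0.117 to 1.27 CPM, with Plac8 at or under 3 counts in every library. The 4 T cell markers, none of which passed the filter on low counts, summed to 0.353 to 0.601 CPM without and 0.790 to 1.26 CPM with tau in Ch25h+/+, and to 0.118 to 0.663 CPM without and 0.0625 to 0.650 CPM with tau in Ch25h-/-. Their sums in Ch25h+/+ Tau+ thus lay above those of the other 3 groups, as did the microglial sums. In bulk tissue more cells of a type and more RNA per cell cannot be told apart, and the part of microglia, border macrophages, T cells or astrocytes in the Ifit values was not tested.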

How the data were processed

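RNA from 16 mouse brain samples was sequenced after extraction with a column kit and library preparation with a SMARTer mRNA kit, per the labels' protocols. The values are raw counts per gene in 1 table deposited by the authors, with no normalization. STAR 2.7 and the builds GRCm38 and mm10 are named in the submitters' processing notes, and the counting program, annotation and use of strand are not given in the sources used here. Counts were scaled by the trimmed mean of M-values (TMM) to CPM. The main test was edgeR 4.0.16 (R 4.3.3), a quasi-likelihood F test on group means over all 16 libraries and 17736 genes, two-sided, with Benjamini-Hochberg adjustment over all of them and a threshold of 0.05. The procedure was tested on simulated data. Shares and ratios of members were compared by exact permutation tests. Alternatives used DESeq2 1.42.0, limma-voom with quality weights 3.58.1, sva 3.50.0, other filters and scalings, covariates, and fits without each library. Positions came from GENCODE M21 by symbol, which held 98.7% of the symbols, and promoters from RefSeq. The 4 genes, the marker and pathway lists and the rule for named genes (members, relatives, neighbours within 1 Mb, the 5 most alike genes, and up to 5 per list by smallest p for tau in Ch25h+/+) were chosen with earlier results of these data known. Replicate numbers were given in record order. Repeated symbols numbered 105 and 27 symbols had become dates. Each member occurred once. A gene of the pathway lists is not reported here.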

Additional observations from a re-analysis of the deposited data

Results flagged for a closer look

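Replicate 1 of Ch25h+/+ Tau+ stood apart from the other 3 libraries of its group in 3 of the 4 members. It measured 13.1 CPM for Ifit1, 33.1 CPM for Ifit3 and 13.9 CPM for Ifit3b, and its gap to the nearest library was 0.842, 0.839 and 0.845 of the group's range, above Dixon's critical value of 0.829 for 4 samples. In all, 20 sets of 4 values were checked, and chance gives about 1 such value in 20. The 3 values come from 1 library and are not independent. The same library measured 11.5 CPM for Irf7 and 9.36 CPM for Isg15, and its total of 15922498 counts was the lowest of its group.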

How the results depend on the processing

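In Ch25h+/+ 3 members passed for tau in each of the 16 fits without 1 library and the 11 other alternatives, in 1 of which Ifit3 and Ifit3b were added and passed as 1 gene, and no member passed for tau in Ch25h-/- or for loss of Ch25h in Tau-. For loss of Ch25h in Tau+ the count of 2 became 0 with only the 8 libraries and with the library class covariate, and was 0 to 2 without 1 library. Ifit1 passed there without a filter and by DESeq2 (adjusted p = 0.0373 and 0.0457). For the interaction the count of 0 became 1 without a filter (Ifit3, adjusted p = 0.0449), and was 0 without any 1 library. Values near 0 changed sign: for loss of Ch25h in Tau-, Ifit1 was -0.0175 by limma-voom, -0.36 with library class and -0.0302 with GC-corrected offsets, Ifit2 was -0.31 and -0.036 in the last 2 of these, and Ifit3 was -0.0414 with Ifit3 and Ifit3b added as 1 gene. Without 1 library they ranged from -0.21 to 0.28 for Ifit1 and from -0.0052 to 0.35 for Ifit3, and for Ifit2 with tau in Ch25h-/- from -0.0122 to 0.16. Ranking by Spearman's rho over the 16 libraries kept 2 of the 5 most alike genes of each member. With the group means subtracted it kept 1 for Ifit2 and 0 for Ifit1, Ifit3 and Ifit3b. The number of genes called among all genes moved with the setting: for tau in Ch25h+/+ from 277 to between 160 and 498, for tau in Ch25h-/- from 7 to between 2 and 28, for loss in Tau- from 182 to between 0 and 1388, for loss in Tau+ from 629 to between 10 and 1883, and for the interaction from 6 to between 0 and 57. No paired analysis was possible because the replicate numbers only follow the order of the records. Members with 21 to 537 counts per library limit the precision of small differences.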
